A study of Mus musculus with 6 samples.

Results

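The regions described here are genomic intervals that carried NANOG only in mouse embryonic stem cells (ESCs) with the highest Esrrb expression and that carried OCT4 in none of the sorted populations. They were selected on their presence in the deposited lists: an interval had to be in the NANOG list of Esrrb-GFP high cells, absent from the NANOG lists of medium and negative cells, and absent from all 3 OCT4 lists, by exact match of its coordinates. Of 23767 distinct intervals in the 6 lists, 2974 met this rule, out of 9425 intervals in the NANOG list of high cells. Which factor was present in which population is therefore a description of the choice and not a result. The comparisons below use the DNA sequence and the genes nearby, which the choice did not use. They also use the distance to other regions, which comes from the same 6 lists as the choice and is a description.

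The study examined how the binding of pluripotency factors changes as ESCs switch off Esrrb. All groups were sorted from E-GFPd1 cells (Esrrb-2a-GFPd-IBIH), a clonal reporter line of E14Tg2a ESCs that expresses a destabilised GFP from the *Esrrb* locus, cultured in LIF and foetal calf serum. Fixed cells were sorted by GFP. The top 10% were taken as Esrrb-GFP high, the 15% just above negative as medium, and cells without GFP as Esrrb-GFP negative, which other labels of the same samples call Esrrb-low. ChIP-Seq was done with a rabbit antibody to NANOG made in-house and a goat antibody to OCT4, with 1 library per factor and population, each pooled from several ChIPs. There are no replicates, so no spread between libraries can be given and no p-value was computed. The lists hold positions only, with no score or read count, so the depth behind each region is unknown, and an absent region may have had signal under the threshold used.

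NANOG is a homeodomain protein and OCT4 a POU-domain protein, and both bind many of the same enhancers of pluripotency genes in ESCs, OCT4 often next to SOX2 on a joint Oct-Sox site. ESRRB is an orphan nuclear receptor of the naive state, encoded by a known target of NANOG, and it is lost early when ESCs leave that state. NANOG can also be found at sites where OCT4 is not detected. These are background facts and not results of the present data.

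The first windows show regions close to genes of the naive state, since *Esrrb* is itself part of that network. Each window covers 200 bp around the centre of a region on mouse assembly mm9 (NCBIM37), 5′ to 3′, and capitals mark exact matches to any of the 20 motifs listed further on. All 6 regions near naive genes that held a match are shown, nearest to the start site first.
*Nr0b1*, GATA and AP-1 matches, chrX:83432652-83432851, forward strand: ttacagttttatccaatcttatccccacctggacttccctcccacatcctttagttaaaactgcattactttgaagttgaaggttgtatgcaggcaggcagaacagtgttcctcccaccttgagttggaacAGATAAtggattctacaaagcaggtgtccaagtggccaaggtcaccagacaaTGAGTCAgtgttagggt
*Dppa2*, AP-1 and SOX matches, chr16:48303762-48303961, forward strand: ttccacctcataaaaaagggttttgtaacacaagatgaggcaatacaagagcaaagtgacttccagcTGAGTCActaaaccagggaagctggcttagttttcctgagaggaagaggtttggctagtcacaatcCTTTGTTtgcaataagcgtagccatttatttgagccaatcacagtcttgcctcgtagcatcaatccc
*Fgf4*, ETS and ESRRB matches, chr7:152037162-152037361, forward strand: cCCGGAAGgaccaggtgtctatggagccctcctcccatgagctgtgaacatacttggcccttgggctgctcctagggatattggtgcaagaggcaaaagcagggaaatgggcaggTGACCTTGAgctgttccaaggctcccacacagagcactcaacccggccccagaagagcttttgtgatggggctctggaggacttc
*Nr0b1*, further upstream, T-box match, chrX:83426472-83426671, forward strand: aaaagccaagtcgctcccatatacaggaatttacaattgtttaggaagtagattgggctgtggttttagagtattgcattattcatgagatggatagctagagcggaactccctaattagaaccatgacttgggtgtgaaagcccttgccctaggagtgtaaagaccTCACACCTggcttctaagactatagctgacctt
*Tbx3*, overlapping KLF matches, chr5:120107602-120107801, forward strand: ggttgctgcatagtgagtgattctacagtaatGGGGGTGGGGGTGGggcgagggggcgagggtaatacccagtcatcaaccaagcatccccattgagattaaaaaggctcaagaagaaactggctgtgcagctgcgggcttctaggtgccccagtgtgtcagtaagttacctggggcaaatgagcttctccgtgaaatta
*Esrrb*, octamer match, chr12:87845662-87845861, forward strand: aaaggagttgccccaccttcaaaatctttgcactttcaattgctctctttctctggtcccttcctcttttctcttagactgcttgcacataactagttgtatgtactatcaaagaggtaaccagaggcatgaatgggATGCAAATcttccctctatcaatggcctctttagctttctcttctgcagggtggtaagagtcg

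The *Fgf4* region lay 10029 bp upstream of the start site of *Fgf4*, which encodes the growth factor that drives ERK signalling in ESCs, and its ESRRB match began 15 bp from the centre. The *Esrrb* region lay in an intron, 143695 bp into the annotated gene. It held an octamer, the sequence read by POU factors such as OCT4, although no OCT4 list contained it, and the nearest OCT4 region was 2680 bp away. The *Tbx3* region, upstream of a T-box factor of the naive network, was 20 bp from an OCT4 region. The regions of *Nr0b1*, which encodes the orphan receptor DAX1, were 164340 and 170520 bp from any OCT4 region. Close neighbours of OCT4 and isolated regions were thus both found near naive genes.

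A further 2 windows, chosen after their values had been seen, show other kinds of match. The NANOG-type match of the intronic *Pax3* region lay 24 bp from the centre. The *Otx2* region, in an intron of a homeobox gene of the primed state, held an octamer and 2 SOX matches and was 20 bp from an OCT4 region.
*Pax3*, NANOG-type match, chr1:78116912-78117111, forward strand: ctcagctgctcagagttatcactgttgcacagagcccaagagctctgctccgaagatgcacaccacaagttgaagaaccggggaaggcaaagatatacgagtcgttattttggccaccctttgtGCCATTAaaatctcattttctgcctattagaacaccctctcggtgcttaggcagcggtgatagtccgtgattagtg
*Otx2*, TEAD, octamer and SOX matches, chr14:49282642-49282841, forward strand: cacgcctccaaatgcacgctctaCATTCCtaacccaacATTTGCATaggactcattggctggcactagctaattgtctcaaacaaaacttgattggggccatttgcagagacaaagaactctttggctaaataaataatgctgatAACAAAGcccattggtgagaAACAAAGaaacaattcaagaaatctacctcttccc

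Among NANOG regions of Esrrb-GFP high cells without OCT4 in any list, 2974 of 5295 were absent from medium and negative cells, which is 56.2% of them. Among NANOG regions of the same cells with OCT4 in at least 1 list, 1868 of 4130 were restricted to high cells, or 45.2%. The 95% Wilson intervals were 54.8 to 57.5% and 43.7 to 46.8%. These values belong to the choice of the regions and are given without a test. A further 2180 OCT4-free regions, or 41.2%, kept NANOG in medium cells and lost it in negative cells, and 141, or 2.66%, were also in the NANOG list of negative cells.

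**Figure D1:**
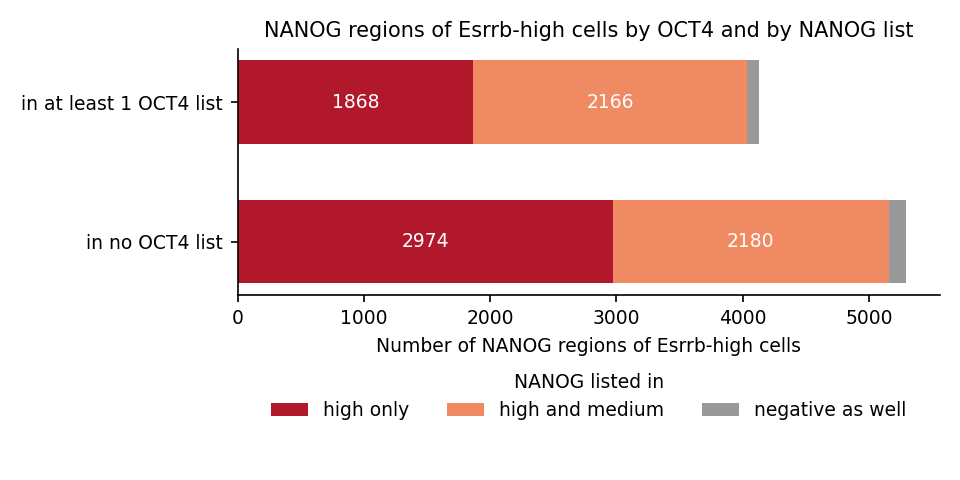
Number of NANOG regions of Esrrb-GFP high cells (x axis, regions) in no OCT4 list and in at least 1 OCT4 list, coloured by the NANOG lists that hold them. The 2974 OCT4-free regions in high cells only are the red part of the lower bar, and 1868 regions with OCT4 are the red part of the upper bar.

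These 3 classes served for comparison: the 2180 OCT4-free NANOG regions kept until medium, which differ from the high-only regions in NANOG alone; the 1868 high-only NANOG regions with OCT4, which differ in OCT4 alone; and 1058 OCT4 regions found in high cells only and without NANOG. Shares have 95% Wilson intervals and odds ratios 95% intervals. They cover counting error over regions only, since there are no replicate libraries.

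The high-only OCT4-free regions were narrow. Their median width was 60 bp (quartiles 40 and 120 bp), and 871 of them had the lowest width in the lists, 40 bp. The regions kept until medium had a median of 80 bp, those with OCT4 180 bp, and the NANOG-free OCT4 regions 60 bp. Widths are those of peaks merged over all libraries and so depend on how many libraries had a peak there, which the choice of regions fixed.

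Around their centres, the regions held many SOX-type and ZIC-type matches and few OCT4-type ones. The SOX and ZIC shares were near those of all NANOG regions of high cells. Exact matches on both strands were counted within 100 bp of each centre for 20 short motifs. Those of the pluripotency factors were the NANOG-type homeodomain motif GCCATTA, the octamer ATGCAAAT, the Oct-Sox core TTGTNATGC, which overlaps the octamer and the SOX motif, and the SOX motif CNTTGTT. They also included the ESRRB motif TCAAGGTCA, read by several orphan nuclear receptors, the KLF motif GGGNGTGG, the STAT motif TTCCNGGAA of LIF signalling and the ZIC motif CCTGCTG. Motifs of factors linked to signalling or lineages were the TEAD motif GGAATG, the AP-1 motif TGANTCA, the E-box CACGTG, the GATA motif AGATAA, the FOX motif TGTTTAC, the OTX motif TAATCC and the T-box motif AGGTGTGA. Motifs of widely expressed factors were the ETS motif CCGGAAG, the SP motif GGGGCGG, the NRF1 motif GCGCNTGCG, the YY1 motif CCATNTTG and the CTCF motif AGGGGGCGC. None of the 20 was found in 717 regions, or 24.1%. A match is a string of letters and was not tested as a binding site.

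A SOX match was the most frequent of the 20. It was present in 877 regions, or 29.5% (27.9 to 31.2%), against 14.1% of windows placed 10 kb downstream of the same regions. Over all 9425 NANOG regions of high cells the share was 29.3%, and over all 23767 regions 22.5%. SOX2, an HMG-box factor, is the usual partner of OCT4 in ESCs. A ZIC match was present in 583 regions, or 19.6% (18.2 to 21.1%), against 4.68% downstream. It was in 19.7% of all NANOG regions of high cells and in 13.7% of all regions. ZIC factors are zinc finger proteins. Both matches stood together in 126 regions, or 4.24%, against 0.471% downstream and 4.63% of all NANOG regions of high cells.

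The NANOG-type match was less frequent, in 141 regions or 4.74% (4.03 to 5.56%), but only 1.58% of downstream windows and 2.80% of all regions held it. Among all NANOG regions of high cells, 4.19% held it. The odds ratio against the downstream windows was 3.10 (2.22 to 4.33). For ESRRB, a match was found in 49 regions, or 1.65%, against 0.370% downstream, an odds ratio of 4.51 (2.34 to 8.69). Over all NANOG regions of high cells, the ESRRB share was 2.16%. KLF matches, read by factors such as KLF4, were present in 9.08% against 5.69% downstream and 10.8% of all NANOG regions of high cells. In all, 7 of the 20 motifs were more frequent than downstream and 1, the E-box, was less frequent, by intervals at the Bonferroni level over 20 motifs (99.75%). The other motifs that passed were the Oct-Sox core, at 2.72% against 0.606%, and TEAD, at 16.2% against 9.66%. Over all NANOG regions of high cells, the Oct-Sox core was at 5.03% and TEAD at 16.2%. Over all regions of the lists, they were at 7.35% and 15.7%. The median GC content was 46% at the regions and 43% downstream.

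**Figure D2:**
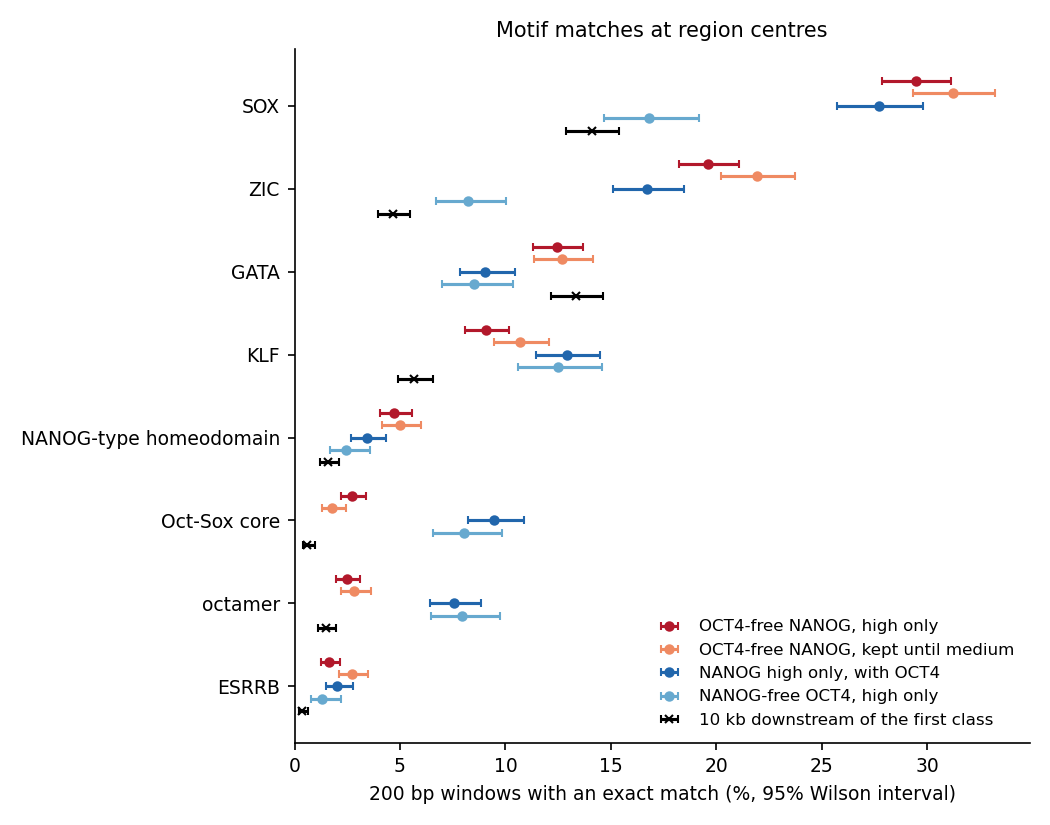
Share of 200 bp windows with an exact match (x axis, percent, bars are 95% Wilson intervals) for 8 motifs in the 4 classes and in windows 10 kb downstream of the OCT4-free high-only regions. SOX at 29.5% and ZIC at 19.6% stand far above the downstream windows at 14.1% and 4.68%, whereas the octamer and the Oct-Sox core are high only in the classes with OCT4.

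Between regions that lost NANOG in medium cells and regions that kept it there, 0 of the 20 odds ratios had an interval at the Bonferroni level that excluded 1. At 95%, 4 motifs had an interval that excluded 1. The ESRRB match was at 1.65% in high-only regions and 2.71% in kept ones, an odds ratio of 0.60 (0.41 to 0.88). The ZIC match was at 19.6% and 21.9% (0.87, 0.758 to 0.995), and the OTX match, read by factors such as OTX2, at 6.52% and 8.07% (0.80, 0.64 to 0.98). The Oct-Sox core went the other way, with 2.72% and 1.79% (1.54, 1.05 to 2.26). For SOX the shares were 29.5% and 31.2% (0.92, 0.82 to 1.04), and for the NANOG-type match 4.74% and 5.00% (0.95, 0.73 to 1.22). With up to 1 mismatch in the longer motifs, the ESRRB odds ratio was 0.78 and the KLF odds ratio 0.82, and both intervals then excluded 1 at the Bonferroni level.

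Against high-only NANOG regions that also carried OCT4, 3 of the 20 motifs were lower and 1 was higher at the Bonferroni level. The OCT4-type matches were among those lower. At 95%, the intervals of 6 motifs excluded 1. The octamer was found in 2.49% of the OCT4-free and 7.55% of the OCT4-bearing regions (odds ratio 0.31, 0.23 to 0.42). The Oct-Sox core was found in 2.72% and 9.48% (0.27, 0.20 to 0.35). At least 1 of these was present in 155 OCT4-free regions, or 5.21%, which is above the 2.09% of downstream windows. KLF matches were also fewer, 9.08% against 12.9% (0.67, 0.56 to 0.81), although with 50 bp either side of the centre that interval reached 1 at the Bonferroni level. The GATA match was more frequent, 12.4% against 9.05% (1.43, 1.18 to 1.73), but was at 13.4% in downstream windows. With 250 bp either side, its interval at the Bonferroni level included 1. The NANOG-type match was more frequent, 4.74% against 3.43% (1.40, 1.04 to 1.90), as was ZIC, 19.6% against 16.7% (1.22, 1.04 to 1.42). Both intervals excluded 1 at 95% but not at the Bonferroni level. SOX matches, at 29.5% and 27.7%, had an interval of the odds ratio from 0.96 to 1.24.

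Against NANOG-free OCT4 regions in high cells, 9 of the 20 motifs differed at the Bonferroni level, 4 higher and 5 lower in the OCT4-free NANOG regions. In the OCT4 regions, SOX was at 16.8% and ZIC at 8.22%, with odds ratios of 2.07 (1.73 to 2.47) and 2.72 (2.15 to 3.45) for the OCT4-free NANOG regions against them. The NANOG-type match was at 2.46% (1.98, 1.29 to 3.02) and GATA at 8.51% (1.53, 1.20 to 1.95). The octamer at 7.94%, the Oct-Sox core at 8.03%, KLF at 12.5%, the SP motif at 3.78% and the E-box at 2.27% were more frequent in the OCT4 regions than in the NANOG regions, where SP was at 1.85% and the E-box at 0.740%. Within quartiles of GC content, 5 rather than 9 motifs passed the Bonferroni level, and the intervals for KLF, GATA and the NANOG-type match were among those that then included 1.

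The matches were concentrated at the centre of the regions. In the central 100 bp, the SOX motif had 53.0 matches per 1000 regions per 25 bp, against 20.7 at 150 to 250 bp, a ratio of 2.56. For ZIC the values were 34.9 and 9.29 (ratio 3.76), and for the NANOG-type motif 8.07 and 2.94 (2.74). For the octamer they were 3.45 and 1.89 (1.82), whereas the regions with OCT4 had 12.7 and 1.87 (6.79). The OCT4-free regions kept until medium had 4.13 and 0.975 octamers (4.24). GATA matches were spread nearly evenly, with 18.7 and 15.6 (1.19). For ESRRB the ratio was 1.76 in the high-only regions and 3.40 in those kept until medium, from 2.44 and 3.90 central matches per 1000 regions per 25 bp. The kept class also had ratios of 2.90 for SOX, 5.18 for ZIC, 2.88 for the NANOG-type motif and 1.14 for GATA.

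**Figure D3:**
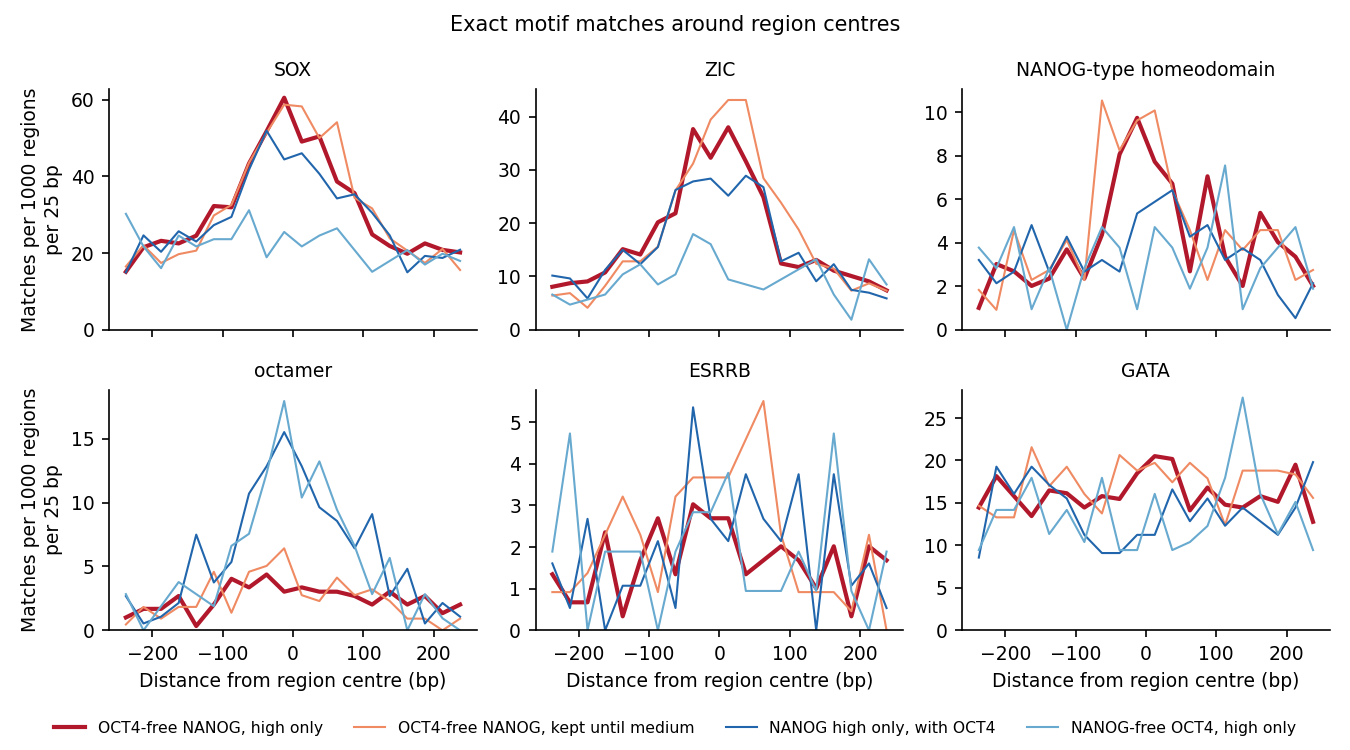
Exact matches per 1000 regions per 25 bp (y axis) by distance from the region centre (x axis, bp) for 6 motifs in the 4 classes. The thick red line, the OCT4-free high-only regions, peaks at the centre for SOX, ZIC and the NANOG-type motif and stays low for the octamer, which peaks in the classes with OCT4.

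Although no OCT4 list contained them, some of the regions lay close to an OCT4 region. Distances to other regions were measured in the lists that made the choice, so the shares and odds ratios for neighbours describe and do not test. An OCT4 region of any list was within 1 kb of 444 regions, or 14.9% (13.7 to 16.3%), and 99 of them were at 20 bp, the shortest gap in the lists. The OCT4 neighbour within 1 kb was in the list of high cells for 351, of medium cells for 362 and of negative cells for 216. These were 11.8%, 12.2% and 7.26%, against 11.1%, 11.5% and 6.56% in the kept class. Over all regions of the lists, the shares were 13.5%, 15.1% and 10.2%. The other 2530 high-only OCT4-free regions had no OCT4 region within 1 kb. Over all 2974, the median distance to the nearest OCT4 region was 30200 bp. In the class kept until medium, 13.9% had an OCT4 region within 1 kb, an odds ratio of 1.09 (0.93 to 1.28). The share was 17.3% in the class with OCT4 (0.84, 0.72 to 0.98), 24.6% in NANOG-free OCT4 regions and 18.5% over all regions, not counting the region itself. At the gap of 20 bp, the shares were 3.33% in the high-only OCT4-free regions and 2.34% in the kept class (1.44, 1.02 to 2.02). The share at this gap was 2.09% in the class with OCT4 (1.61, 1.11 to 2.35), 7.56% in NANOG-free OCT4 regions and 3.57% over all regions.

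Neighbouring NANOG regions were fewer than in the kept class. Another NANOG region of high cells was within 1 kb of 323, or 10.9%, against 13.3% of regions kept until medium (odds ratio 0.80, 0.67 to 0.94). Against high-only regions with OCT4, at 11.1%, the odds ratio was 0.98 (0.81 to 1.18). A NANOG region of medium or negative cells was within 1 kb of 208, or 6.99%. The share was 7.25% in the kept class, 5.62% in the class with OCT4 and 7.00% over all NANOG regions of high cells. No region of any list lay within 20 kb of 1454, or 48.9%, against 46.2% of the kept class (1.11, 0.996 to 1.24) and 41.4% of the class with OCT4 (1.35, 1.20 to 1.52). Among regions of at least 100 bp, the interval for the first of these contrasts included 1.

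Few of the regions were promoters. The centre lay between annotated genes in 1630, or 54.8%, in an intron in 1271, or 42.7%, and in an exon in 73, or 2.45%. A transcription start site was within 1 kb of 132 centres, or 4.44% (3.76 to 5.24%). The share was 5.60% in the kept class (odds ratio 0.78, 0.61 to 1.01, and 1.05 among regions of at least 100 bp) and 4.71% in the class with OCT4 (0.94, 0.71 to 1.24). In NANOG-free OCT4 regions it was 9.45% (0.44, 0.34 to 0.58). Within 5 kb, the shares of the high-only and kept classes were 18.6% and 22.3%, and that interval excluded 1 (0.80, 0.69 to 0.91). At least 1 CpG was in 76.2% of the windows, against 76.1% of the kept class (1.00, 0.88 to 1.14), 75.5% of the class with OCT4 (1.04, 0.91 to 1.19) and 81.2% of NANOG-free OCT4 regions (0.74, 0.62 to 0.89). Windows with at least 5 CpG were 7.70% of the total, against 8.30% of the kept class, 8.89% of the class with OCT4 and 16.4% of NANOG-free OCT4 regions.

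Part of the regions shared a run of sequence with another region. Within 250 bp of the centre, 796 regions, or 26.8% (25.2 to 28.4%), shared an exact run of 30 bases with another region over 1 kb away, which is what copies of repeated elements do. The sequence used does not mark repeats, so the elements are not named here. The share was 31.6% in the kept class (odds ratio 0.79, 0.70 to 0.89), 32.9% in the class with OCT4 (0.74, 0.66 to 0.84) and 45.5% in NANOG-free OCT4 regions (0.44, 0.38 to 0.51). When at least 50 shared words of 30 bases were required, a setting chosen after seeing the data, the odds ratio was 0.95 (0.70 to 1.29) against NANOG-free OCT4 regions, with shares of 5.41% and 5.67%, and 0.81 (0.64 to 1.02) against the kept class. Simple tandem repeats of at least 20 bases were present in 1.08% of the windows, against 1.24% of the kept class (0.87, 0.52 to 1.45), 2.14% of the class with OCT4, 1.56% of all NANOG regions of high cells, 16.6% of NANOG-free OCT4 regions and 6.09% of downstream windows.

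Motif matches were not evenly divided between these groups. ZIC matches were in 28.3% of the 796 high-only regions with a shared run and in 16.4% of the 2178 without one. The Oct-Sox core was in 5.90% and 1.56%. SOX matches, at 29.9% and 29.3%, and NANOG-type matches, at 4.02% and 5.00%, had overlapping intervals. Leaving out all windows with a shared run, 0 of 20 motifs differed from the kept class and 4 of 20 from the class with OCT4, by intervals at the Bonferroni level.

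**Figure D4:**
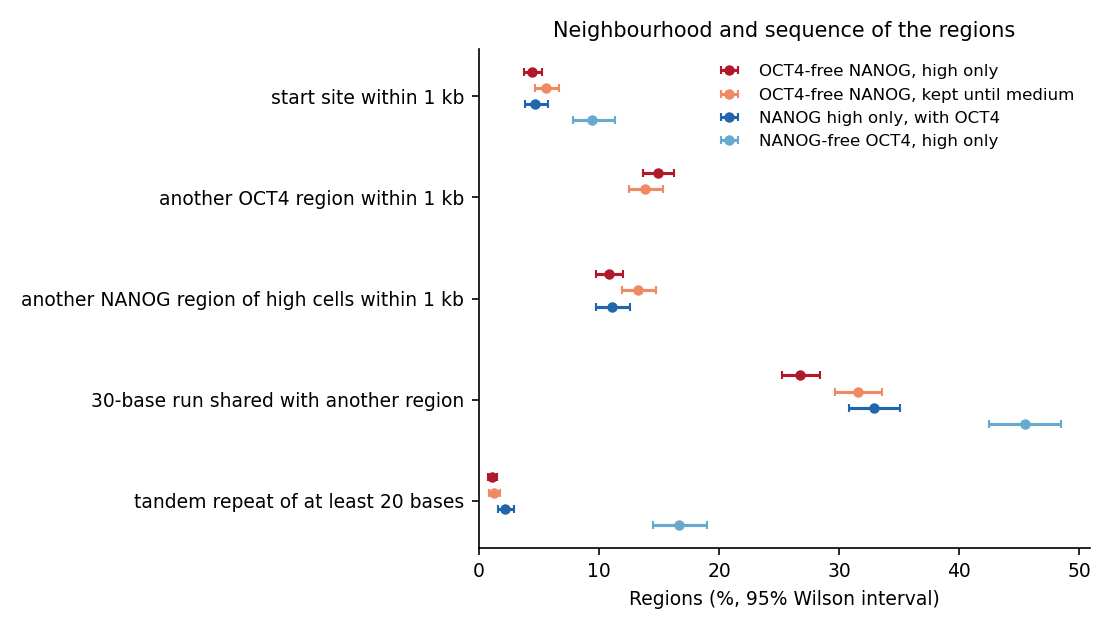
Share of regions (x axis, percent, bars are 95% Wilson intervals) with each neighbour or sequence feature, by class. Classes with OCT4 are left out for the OCT4 neighbour, and the NANOG-free class is left out for the NANOG neighbour. OCT4-free high-only regions have fewer shared 30-base runs (26.8%) than the other 3 classes, and tandem repeats are at 1.08% in them, 1.24% in the kept class and 16.6% in NANOG-free OCT4 regions.

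When windows with at least 50 shared words of 30 bases were joined, 161 of the regions, or 5.41%, fell into families. Over all regions of the lists the share was 7.28%. The largest family held 584 regions, of which 51 were OCT4-free and high-only, 51 were OCT4-free and kept until medium, and 479 carried OCT4 in at least 1 list. An octamer was found in 7 of the 51 high-only ones and an Oct-Sox core in 19, although no OCT4 list contained them. Over the whole family, an octamer was in 31 of the 584 regions and an Oct-Sox core in 181. The next family by number of OCT4-free high-only regions held 37 regions. Of these, 16 were OCT4-free and high-only, 34 carried NANOG in high cells and 11 carried OCT4. A ZIC match was present in 31 of the 37, and in 13 of the 16. The Oct-Sox core was in none of them.

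A pair of OCT4-free high-only regions from each of these families, those with the most shared words, is given to show how close copies can be. Capitals mark the longest exact run that both windows of a pair share, of 78 bases in the largest family and 96 bases in the other, and the windows are oriented alike. The members of the second family were chosen after their values had been seen. The ZIC letters and the octamer lie inside the shared runs of their families.
Largest family, first region, chr1:114122212-114122411, forward strand: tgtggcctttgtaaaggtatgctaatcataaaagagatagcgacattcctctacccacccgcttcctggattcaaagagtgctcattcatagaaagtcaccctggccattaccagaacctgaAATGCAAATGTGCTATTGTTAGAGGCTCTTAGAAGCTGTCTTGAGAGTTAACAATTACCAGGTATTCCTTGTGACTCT
Largest family, second region, chr4:10972192-10972391, reverse strand: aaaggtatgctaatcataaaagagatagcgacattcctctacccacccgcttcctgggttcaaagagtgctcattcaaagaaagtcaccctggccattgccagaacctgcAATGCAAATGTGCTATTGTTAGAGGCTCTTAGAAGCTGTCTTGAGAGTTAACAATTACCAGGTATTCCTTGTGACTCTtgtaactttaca
ZIC-rich family, first region, chr9:10540852-10541051, forward strand: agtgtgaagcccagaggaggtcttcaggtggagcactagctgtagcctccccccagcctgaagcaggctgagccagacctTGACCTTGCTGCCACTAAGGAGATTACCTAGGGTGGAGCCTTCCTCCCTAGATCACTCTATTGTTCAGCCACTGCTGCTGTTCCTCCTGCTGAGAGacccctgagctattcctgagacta
ZIC-rich family, second region, chr9:17883042-17883241, reverse strand: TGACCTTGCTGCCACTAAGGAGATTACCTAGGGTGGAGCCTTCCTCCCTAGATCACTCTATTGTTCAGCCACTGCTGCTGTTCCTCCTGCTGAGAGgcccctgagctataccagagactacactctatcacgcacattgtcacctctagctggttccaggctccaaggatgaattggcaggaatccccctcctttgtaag

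Over the aligned 188 bases, the pair of windows from the largest family was identical at 184 positions (97.9%). The pair from the ZIC-rich family was identical at 117 of 120 (97.5%). These pairs were picked for the most shared words, and the identity of other pairs was not measured. The largest family as a whole held copies with NANOG and no OCT4 and copies with OCT4. Reads from near-identical copies are hard to place, and how far this moved regions in or out of the lists was not tested.

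The regions were on all autosomes and chromosome X, with none on chromosome Y, which had no NANOG region of high cells of any kind. On autosomes there were 2858, or 1.16 per Mb, between 0.895 and 1.36 per Mb on single chromosomes. Chromosome X held 116, or 0.696 per Mb, out of 296 NANOG regions of high cells. Chromosome 3, the nearest to it in length, held 172 out of 537, so NANOG regions of any kind were also fewer on chromosome X. Of NANOG regions of high cells on chromosome X, 39.2% (33.8 to 44.9%) were OCT4-free and high-only, whereas single autosomes ranged from 28.4 to 34.4%. Of the OCT4-free NANOG regions of high cells there, 59.5% were high-only, within the autosomal range of 48.3 to 61.0%.

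A high-only OCT4-free region lay within 20 kb of the body of 2079 of 22380 protein-coding genes, or 9.29%. Of the 184 genes in 11 lists of pluripotency, signalling, chromatin and lineage genes, 47 had such a region, or 25.5%. A NANOG region of high cells of any kind lay within 20 kb of 112 of the 184 and of 5222 of all genes, 60.9% and 23.3%. Among genes with any NANOG region, the share with a high-only OCT4-free one was 42.0% for the lists and 39.8% for all protein-coding genes. Over single lists it ran from 26.7% for the core and general factors to 58.3% for the FGF and ERK pathway, on few genes each. The median gene length was 16188 bp over the lists and 15420.5 bp over all protein-coding genes. It was 60190.5 bp for the DNA methylation and chromatin regulators and 65335 bp for the Wnt pathway. No protein-coding gene lay within 20 kb of 1124 of the regions, or 37.8%. The lists were chosen with earlier results of these data known, and no test was made of them.

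Of 20 naive pluripotency factors, 7 had a high-only OCT4-free region, or 35%, against 9.29% of all protein-coding genes. A NANOG region of any kind lay near 17 of the 20. Of these, 41.2% had a high-only OCT4-free one, against 39.8% of all protein-coding genes with a NANOG region. *Nr0b1* had 2, and no other NANOG region of high cells was within 20 kb of it. *Dppa2* and *Dppa4*, neighbouring genes for SAP-domain chromatin proteins of early embryos, shared 1 region, 6728 bp upstream of *Dppa2* and downstream of *Dppa4*. *Fgf4*, *Tbx3* and *Esrrb* are described above, *Esrrb* with 7 NANOG regions of high cells, of which 1 was OCT4-free and high-only and 2 OCT4-free and kept until medium. *Zfp42*, which encodes the naive marker REX1, had a region 12581 bp downstream of its start site, 240 bp from an OCT4 region.

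Of 16 core and general pluripotency factors, 4 had such a region, or 25%, against 9.29% of all protein-coding genes. A NANOG region of any kind lay near 15 of the 16. Of these, 26.7% had a high-only OCT4-free one, against 39.8% of all protein-coding genes with a NANOG region. *Etv5*, an ETS factor downstream of FGF signalling, had 4 of its 9 NANOG regions in this class. *Sall4*, a zinc finger factor of the core network, had 2, the nearer 1569 bp upstream of its start site with a SOX match, and *Tdgf1*, the gene of a Nodal co-receptor, had 2. *Trim28*, a co-repressor of retroviral elements, had 1.

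Genes of the formative and primed states were also among them, 6 of 16, or 37.5%, against 9.29% of all protein-coding genes. A NANOG region of any kind lay near 11 of the 16. Of these, 54.5% had a high-only OCT4-free one, against 39.8% of all protein-coding genes with a NANOG region. *Foxd3*, a forkhead factor of the early embryo, had 3 regions, of which 2 lay close together, 19818 and 19448 bp upstream of the start site. *Grhl2*, an epithelial factor of the formative state, also had 3, at 5551 and 29641 bp into the gene and 17259 bp upstream. The other 4 were *Cdh2*, the gene of N-cadherin, with 2 regions, and *Otx2*, *Dusp6* and *Lef1* with 1 each. No other NANOG region of high cells lay within 20 kb of *Otx2*.

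In the FGF and ERK pathway, 7 of 19 genes had a region, or 36.8%, against 9.29% of all protein-coding genes. A NANOG region of any kind lay near 12 of the 19. Of these, 58.3% had a high-only OCT4-free one, against 39.8% of all protein-coding genes with a NANOG region. *Fgfr2*, a receptor, had 6, but its body spans 3009069 bp in the annotation used, and regions far from the receptor's exons are counted with it. *Fgfr1*, the other receptor, had 1. The feedback inhibitors *Spred2*, *Spry4* and *Dusp6* had 2, 1 and 1, and that of *Spry4* lay 1970 bp upstream of the start site. The ligand *Fgf4* had 1 and the target *Etv5* 4, as described.

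In the Nodal and BMP pathway, 4 of 20 genes had a region, or 20%, and 10 had a NANOG region of any kind. The region of the ligand *Nodal* lay 1078 bp upstream of its start site and 60 bp from an OCT4 region. The others were the co-receptor *Tdgf1*, the receptor *Acvr1b*, and *Id1*, a target of BMP. In the Wnt pathway it was 5 of 18, or 27.8%, and 9 had a NANOG region of any kind. *Ctnnb1*, which encodes β-catenin, had 2 regions in annotated exons. The others were the nuclear partner *Lef1*, the negative regulators *Gsk3b* and *Axin2*, and the receptor *Lgr4*. In the LIF and STAT3 pathway it was 2 of 13, or 15.4%, and 6 had a NANOG region of any kind. The genes were the receptor *Lifr* and the target *Myc*, the latter 3266 bp from its start site with a KLF match. Over all protein-coding genes the share was 9.29%. Among genes with any NANOG region, the shares of these pathways were 40%, 55.6% and 33.3%, in the order given, against 39.8% of all protein-coding genes.

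Of 24 DNA methylation and chromatin regulators, 9 had a region, or 37.5%, against 9.29% of all protein-coding genes. A NANOG region of any kind lay near 20 of the 24. Of these, 45% had a high-only OCT4-free one, against 39.8% of all protein-coding genes with a NANOG region. *Tet2*, which encodes an enzyme that oxidises methylated cytosine, had 2 of its 5 NANOG regions in this class, and *Kdm2b*, of a Polycomb complex, had 2 of 3. *Uhrf1* and *Dnmt3a*, needed to maintain and to set DNA methylation, had 1 each, at 4832 bp upstream and 83985 bp into the gene. *Setdb1* and *Jarid2*, of repressive histone methylation complexes, *Kdm6a*, a histone demethylase, and *Chd1*, a chromatin remodeller, had 1 each.

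Of 22 germ layer and lineage transcription factors, 3 had a region, *Neurog3* and *Pax3* among them, and of 11 trophectoderm genes 1, *Krt8*, the gene of a simple keratin. Of 14 germ cell and 2-cell stage genes, 4 had a region: *Prdm1*, the gene of the germ cell factor BLIMP1, with 3, and *Tex19.1*, *Stk31* and *Kitl* with 1 each. These shares, 13.6%, 9.09% and 28.6%, stand beside 9.29% of all protein-coding genes. Among genes with any NANOG region, the shares of these lists were 37.5%, 33.3% and 50%, against 39.8% of all protein-coding genes.

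**Figure D5:**
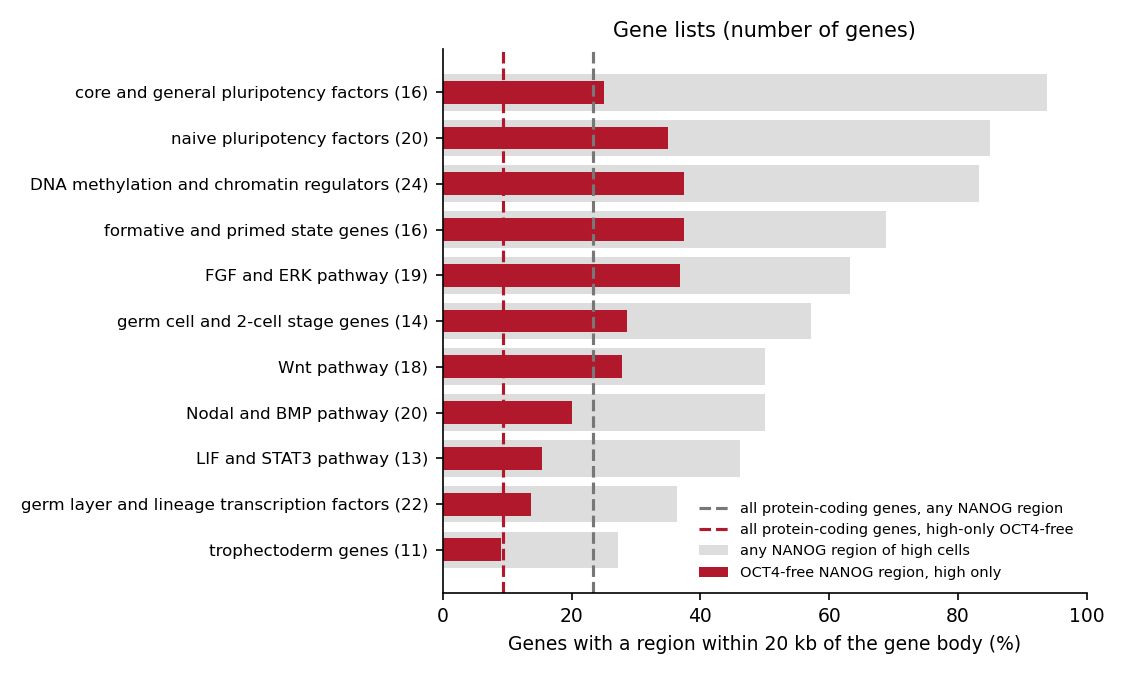
Share of genes (x axis, percent) in each list with a NANOG region of Esrrb-GFP high cells within 20 kb (grey bars) and with an OCT4-free high-only one (red bars), with the number of genes in parentheses and all protein-coding genes as dashed lines at 23.3% and 9.29%. The naive factors are at 85% and 35%, the core and general factors at 93.8% and 25%, and the trophectoderm list at 27.3% and 9.09%.

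Among all protein-coding genes, 10 had at least 4 regions within 20 kb. *Clybl*, a mitochondrial enzyme gene on chromosome 14, had 7 of its 10 NANOG regions in this class. *Fgfr2* and *Park2*, the gene of the ubiquitin ligase parkin, had 6 each, and *Anks1b*, *Auts2*, *Etv5*, *Gm20388*, *Immp2l*, *Pcdhgc5* and *Snd1* had 4 each. Most of these genes are long: *Park2*, *Anks1b*, *Auts2* and *Immp2l* span between 994529 and 1305899 bp, against a median of 15420.5 bp over all protein-coding genes. *Etv5*, at 58411 bp, was the shortest. All 4 NANOG regions of *Snd1* were OCT4-free and high-only.

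Only 3 regions covered the annotated start site of a protein-coding gene. Of these, 1 held a NANOG-type, ESRRB or KLF match, that of *Clpb*, which encodes a mitochondrial disaggregase. It lay at chr7:108812112-108812171, with its centre 5 bp from the start site, a KLF and a TEAD match in its window, and no OCT4 region within 13340 bp.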

How the data were processed

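OCT4 and NANOG ChIP-Seq regions of sorted E-GFPd1 ESCs were examined, with 6 libraries in 6 conditions, grouped by the antibody and sorted fraction in their labels. Per the study's methods and the submitters' notes, the authors aligned reads (Bowtie, within GeneProf, mm9), used SISSRs for peak calling, and joined peaks that overlapped across the libraries. They dropped a region from a population whose depth-normalized signal was under 50% of the maximum for that region. Other tool versions are not given in the sources used here. The deposited intervals have no score or count, so depth is unknown and no stricter peak threshold could be set.

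Classes were formed by exact interval match. The members of the class and all gene and motif lists were chosen with earlier results of these data known. Genes were from GENCODE on the same assembly, NCBIM37, where 4 of the listed genes were not found. Windows were 200 bp. Wilson intervals were used for shares, and Woolf or, over strata, Mantel-Haenszel intervals for odds ratios. Named were list genes with a region within 20 kb (at most 8 a list, most regions first, then nearest to the start site), the 10 genes with most regions, and start-site regions of other genes that held a NANOG-type, ESRRB or KLF match. Shown were windows at naive genes with a match and regions of the largest near-identical family. Python 3.11.15, numpy 2.4.6, scipy 1.17.1, pysam 0.24.0, samtools 1.23.1 and matplotlib 3.10.9 were used. The functions were tested on simulated data, and 29 of 29 known answers were recovered. Some named genes and windows are not reported here.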

Additional observations from a re-analysis of the deposited data

How the results depend on the processing

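No paired analysis was possible because every factor and population had a single library. Leaving out a replicate and a stricter peak threshold were not possible either, and regions of at least 100 bp stood in for the latter. This left 994 of the 2974 regions and 23 of 47 list genes. The other definitions of the class left 2530 to 2858 regions. Of the 20 motifs, the number past the Bonferroni level against the kept class rose from 0 to 1 with the interval itself and to 2 with up to 1 mismatch. Against regions with OCT4 it rose from 4 to 14 with the interval itself, and the odds ratios of SOX, ZIC and GATA reversed to 0.49, 0.59 and 0.74. The intervals there were narrower than those with OCT4, so fewer bases were searched. Against NANOG-free OCT4 regions it fell from 9 to 5 with 250 bp either side, 5 with the interval itself, 5 within GC quartiles and 4 in regions of at least 100 bp. The odds ratio of a start site against the kept class was 0.80 within 5 kb. That of a NANOG neighbour was 0.91 in regions of at least 100 bp, and against regions with OCT4 0.86 within 5 kb and 0.86 within 20 kb, where the intervals excluded 1. For CpG in the interval itself, it reversed to 0.86 against the kept class and 0.37 against the class with OCT4, and against NANOG-free OCT4 regions it was 0.86 with 250 bp either side. With at least 50 shared words, chosen after seeing the data, the odds ratio of near-identical sequence was 0.81 against the kept class and 0.95 against NANOG-free OCT4 regions, and both intervals included 1. Of 10 recurrent 7-mers, 4 were also among the 10 with upstream windows. The cause of these changes, those with the interval itself included, was not tested.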

Other observations

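The 7-base words most over-represented in the OCT4-free high-only regions, relative to windows 10 kb downstream, were ranked without reference to any motif list, as a description chosen on its values. Among 4138 words found in at least 2% of the regions, CTATTGT came first, in 385 regions or 12.9% against 2.15% downstream, a ratio of 6.01. GAACAAT was in 10.2% against 2.32%, and CCTGCTG, the ZIC motif, in 19.6% against 4.68%. GACCTTG, which is part of the ESRRB motif TCAAGGTCA read on the other strand, was in 8.64% against 2.19%. CCTTTGT and CCATTGT, which resemble SOX sites, were in 14.9% and 10.9%, against 4.10% and 3.16%.

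These words were divided unequally by shared sequence. CTATTGT was in 26.0% of regions with a shared 30-base run and in 8.17% of those without. CCTAGAT, in 4.37% of all, was in 12.1% and 1.56%. CCTTTGT had the opposite order, with 12.6% and 15.8%. CTATTGT was in 14.8% of regions kept until medium, 10.5% of high-only regions with OCT4 and 6.14% of NANOG-free OCT4 regions. It was also at 8.17% in windows without a shared run, above the 2.15% downstream of all the regions.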
